A study of Homo sapiens with 10 samples.

Results

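The genes described here serve interferon signalling, NF-kB signalling and the presentation of peptides on class I molecules. The list of 52 gene symbols was set by function, with earlier results on these data known. A gene was taken as measured when a probe set of the array carried its symbol and no other, and the brightest such probe set, by its mean over the arrays, stood for the gene. This gave 51 genes of the 14232 named genes on the array. STAT2 had no such probe set and is not analysed here, and IL6 was the only measured member with more than 1.

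RNA was profiled on Affymetrix exon arrays in SH-SY5Y, an established human neuroblastoma cell line. The cells carried a stably transfected SOD1(G93A), a mutant superoxide dismutase found in familial amyotrophic lateral sclerosis, or stably transfected wild-type SOD1, and both lines were kept in G418. SOD1(G93A) cells gave samples 3, 9, 12, 15 and 18, and wild-type SOD1 cells gave samples 2, 8, 11, 14 and 17, 5 arrays in each group. The labels name no interferon, cytokine or infection. The labels do not say whether a line was 1 clone or a pool, nor whether the arrays came from separate cultures. The p-values therefore measure the spread between these arrays, which may be technical, and the construct and any other difference between the lines cannot be told apart.

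Cells detect foreign RNA and DNA with sensor proteins, and the signal leads to interferon secretion. Interferons bind paired receptors whose JAK kinases activate STAT and IRF factors, and these switch on antiviral genes through a promoter element called the interferon-stimulated response element (ISRE). NF-kB is held in the cytoplasm by inhibitor proteins and, once released, induces cytokine genes and also its own inhibitors. Both routes raise the machinery that loads peptides onto class I molecules, which many neuroblastomas express at a low level.

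Promoter stretches are shown first. The groups of genes were set by function, not by these promoter matches. RefSeq promoter windows on GRCh38.p14 were at hand for 40 of the 51 measured members, and the 250 bases before each gene's start were searched on both strands. The ISRE core was searched as GAAANNGAAA, and a match on the other strand reads as its reverse complement. It stood in 10 of 14 interferon target promoters and in all 4 class I presentation promoters examined. Of the other groups it stood in 1 of 3 sensor, 1 of 2 SOCS and 1 of 5 NF-kB factor and inhibitor promoters. It stood in 0 of 3 receptor, 0 of 6 kinase and STAT/IRF factor and 0 of 3 NF-kB target promoters. In all, 17 of the 40 members held it, or 42.5%. Of the 27303 promoters of the same length, 3.07% held it. The stretches below, each printed 5′ to 3′ on the gene's strand, carry ISRE matches in capitals, and a run longer than 10 capitals is a pair of overlapping matches. They belong to the interferon targets with the largest positive differences, to their neighbour IFIT5, to the widely used marker ISG15, to IFI6 and to 3 class I genes.
IFIT1, chr10:89392487-89392549, plus strand: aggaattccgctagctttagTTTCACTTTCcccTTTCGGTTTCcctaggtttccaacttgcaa
IFIT3, chr10:89327821-89327904, plus strand: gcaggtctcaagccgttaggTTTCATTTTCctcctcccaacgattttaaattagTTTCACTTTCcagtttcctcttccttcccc
IFIT5, chr10:89414503-89414567, plus strand: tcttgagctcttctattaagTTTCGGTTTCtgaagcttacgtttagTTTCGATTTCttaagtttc
ISG15, chr1:1013364-1013419, plus strand: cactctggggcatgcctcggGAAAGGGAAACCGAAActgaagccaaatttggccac
IFI6, chr1:27672256-27672368, minus strand: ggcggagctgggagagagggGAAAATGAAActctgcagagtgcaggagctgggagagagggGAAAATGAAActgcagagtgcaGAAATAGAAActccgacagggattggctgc
TAP1, chr6:32853803-32853858, minus strand: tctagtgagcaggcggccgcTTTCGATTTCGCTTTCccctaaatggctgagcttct
TAP2, chr6:32838768-32838817, minus strand: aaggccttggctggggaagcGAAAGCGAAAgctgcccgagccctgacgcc
B2M, chr15:44711353-44711408, plus strand: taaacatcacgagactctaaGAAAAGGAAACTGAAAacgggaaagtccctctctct

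The gamma-activated site (GAS), an element bound by STAT dimers, was searched as TTCNNNGAA and stood in 7 of the 40 member promoters (17.5%) and in 6.78% of all promoters. The NF-kB consensus motif stood in 13 member promoters (32.5%) and in 6.6% of all promoters. It was found in NFKBIA and TNFAIP3, whose products restrain NF-kB. By group it stood in 3 of 5 NF-kB factor and inhibitor, 1 of 3 NF-kB target (IL6) and 3 of 4 class I promoters. It also stood in 2 of 3 sensor promoters and in 1 each of 14 interferon target, 6 kinase and STAT/IRF factor, 3 receptor and 2 SOCS promoters. Matches are in capitals in the stretches of OAS1, IRF1 and IRF9 (GAS) and of NFKBIA and TNFAIP3 (NF-kB consensus), chosen because these genes carry results below. A match describes the letters only.
OAS1, chr12:112906774-112906822, plus strand: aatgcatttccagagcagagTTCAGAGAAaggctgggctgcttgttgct
IRF1, chr5:132490869-132490917, minus strand: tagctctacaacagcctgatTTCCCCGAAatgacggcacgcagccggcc
IRF9, chr14:24161182-24161230, plus strand: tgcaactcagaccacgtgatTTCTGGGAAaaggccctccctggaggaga
NFKBIA, chr14:35404801-35404850, minus strand: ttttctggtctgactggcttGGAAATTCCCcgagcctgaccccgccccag
TNFAIP3, chr6:137867172-137867233, plus strand: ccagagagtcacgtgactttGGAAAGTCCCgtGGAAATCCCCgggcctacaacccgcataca

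All levels below are log2 intensities, and all differences are SOD1(G93A) minus wild-type SOD1 on that scale. A member was called when limma, a moderated linear model fitted over all 22011 probe sets, gave a Benjamini-Hochberg adjusted p of 0.05 or less. Array medians lay between 6.26 and 6.34. The lower quartile of the probe sets lay between 3.84 and 3.89, and differences of genes below it are compressed. Of 5 noradrenergic neuroblastoma markers, PHOX2A, GATA3, ISL1 and CHGA had group means between 9.17 and 10.35, and TH was at 5.67 ± 0.08 in SOD1(G93A) and 5.59 ± 0.08 in wild-type arrays (SD, n = 5 each). By limma CHGA was called higher (1.06, adjusted p = 0.000216) and GATA3 lower (−0.38, adjusted p = 0.00732), and the mean of the 5 ran from 8.868 to 9.051 in SOD1(G93A) arrays and from 8.675 to 8.865 in wild-type arrays. None of 6 immune or 5 endothelial markers was called or had an unadjusted p under 0.05 by limma. The leukocyte marker PTPRC, the dimmest immune marker, was at 2.13 ± 0.02 in SOD1(G93A) and 2.18 ± 0.05 in wild-type arrays (SD, n = 5 each). Not all immune markers were dim. CD68 was at 6.72 in SOD1(G93A) and 6.64 in wild-type arrays, CD14 at 4.64 in both, and MS4A1 at 4.48 and 4.24.

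Of the 51 measured members 3 were called. IFNGR1, a gamma interferon receptor chain, was called higher, and the kinase JAK1 and the antiviral enzyme OAS1 were called lower. These 3 were 5.88% of the 51 members, where 9.6% of all named genes and 7.46% of all probe sets were called. By direction, 1 member was higher and 2 were lower, against 4.03% of named genes higher and 5.57% lower. At an unadjusted p under 0.05 there were 9 members, 4 higher and 5 lower, or 17.6%, and the share among named genes was 21.7%.

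None of the 51 reached the 2-fold change that the labels also ask for, which 1.18% of named genes passed together with the adjusted p. The groups did not overlap in 4 members, IFNGR1, JAK1, OAS1 and IFIT3, and in 11.4% of all named genes. Differences ran from −0.40 (OAS1) to 0.53 (IFIT1), with a median of −0.04 and a median size of 0.09. Over all named genes the median difference was −0.0043 and the median size 0.09. The 95% interval lay inside ±1 for all 51 members and inside ±0.5 for 47 of them. The other 4 were IFNGR1, OAS1, IFIT1 and IFIT3.

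**Figure D1:**
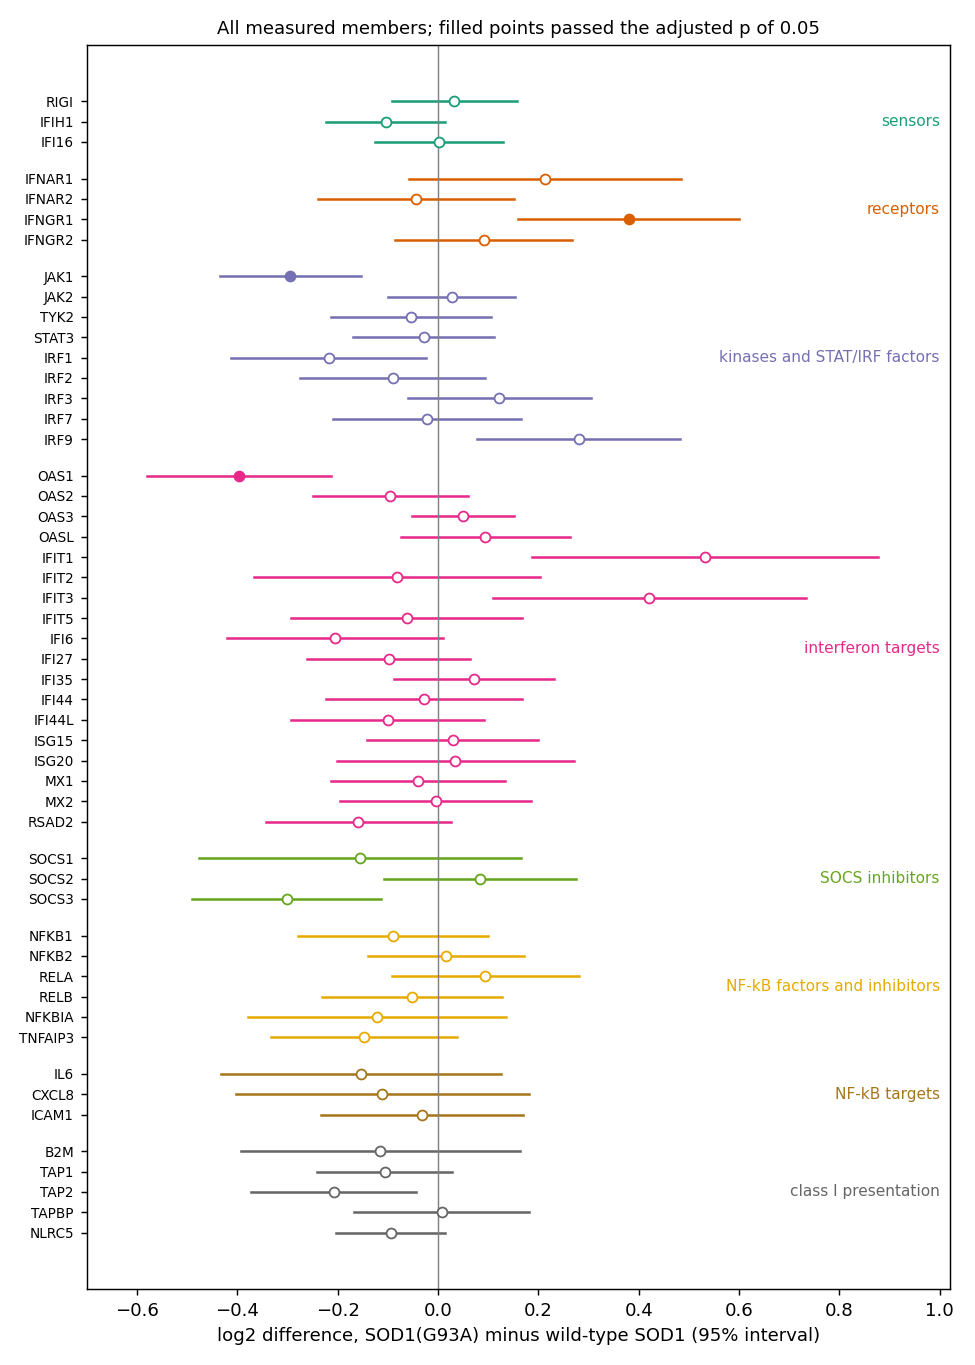
Log2 difference (SOD1(G93A) minus wild-type SOD1) of each of the 51 measured members and its 95% interval by limma (n = 5 arrays per group), coloured by role. Filled points are the 3 members past the adjusted p of 0.05 (IFNGR1 higher, JAK1 and OAS1 lower), and no interval reaches −1 or 1.

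Sensors of foreign nucleic acid were at low levels in both lines. RIGI and IFIH1 detect viral RNA, and IFI16 binds DNA. RIGI was at 3.76 ± 0.09 in SOD1(G93A) and 3.73 ± 0.03 in wild-type arrays (SD, n = 5 each), a difference of 0.03 (95% interval −0.09 to 0.16; limma adjusted p = 0.844). IFIH1 was at 2.09 ± 0.04 against 2.19 ± 0.08, a difference of −0.10 (interval −0.22 to 0.01; limma adjusted p = 0.346). IFI16 was at 2.22 in both groups. The means of all 3 lay under the lower quartile of all probe sets, so a small change could have gone unseen.

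Among the 4 receptor chains, IFNGR1 rose. It had 7.99, 8.10, 7.89, 8.14 and 8.47 in SOD1(G93A) samples 3, 9, 12, 15 and 18, against 7.63, 7.75, 7.77, 7.71 and 7.84 in wild-type samples 2, 8, 11, 14 and 17, the order kept below. Every SOD1(G93A) array lay above every wild-type array, sample 18 highest of all. The difference was 0.38 (SE 0.10, 95% interval 0.16 to 0.60; limma adjusted p = 0.0438), or 130.1% of the wild-type level, and the exact permutation test of its 10 values gave p = 0.00794, the smallest that 5 against 5 allow. The call was narrow. It was lost when any 1 of 8 arrays (samples 2, 3, 8, 9, 11, 14, 15 and 17) was left out, with adjusted p up to 0.103, and in the unmoderated test (adjusted p = 0.0781), while the difference stayed between 0.29 and 0.44 over the 10 omissions.

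IFNGR2, the second chain of that receptor, was at 9.05 ± 0.15 in SOD1(G93A) and 8.96 ± 0.09 in wild-type arrays (SD, n = 5 each), a difference of 0.09 (interval −0.08 to 0.27). The alpha and beta interferon receptor chain IFNAR1 had 7.57, 7.56, 7.43, 7.95 and 8.09 in SOD1(G93A) arrays, against 7.54, 7.37, 7.57, 7.48 and 7.57 in wild-type arrays. SOD1(G93A) samples 15 and 18 stood above all others and the remaining 3 lay among the wild-type values, so the difference of 0.21 did not pass (interval −0.06 to 0.48; limma adjusted p = 0.406). The other chain, IFNAR2, differed by −0.04 (interval −0.24 to 0.15). The mean of the 4 chains was highest in SOD1(G93A) samples 15 and 18 and lowest in SOD1(G93A) sample 12.

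JAK1, the kinase shared by both interferon receptors, fell. It had 9.29, 9.26, 9.43, 9.39 and 9.51 in SOD1(G93A) arrays, against 9.67, 9.64, 9.79, 9.66 and 9.59 in wild-type arrays. All SOD1(G93A) values lay below all wild-type values. The difference was −0.29 (SE 0.06, interval −0.43 to −0.15; limma adjusted p = 0.0162; exact permutation p = 0.00794), or 81.6% of the wild-type level. It was called under each of 16 refits, among them all 10 omissions of an array (adjusted p 0.0103 to 0.045).

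The partner kinases JAK2 and TYK2 were not called, with differences of 0.03 (interval −0.10 to 0.15) and −0.05 (interval −0.21 to 0.11). STAT3, the main mediator of IL-6 type cytokines, was at 9.16 ± 0.08 in SOD1(G93A) and 9.19 ± 0.10 in wild-type arrays (SD, n = 5 each), a difference of −0.03 (interval −0.17 to 0.11).

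None of the interferon regulatory factors passed the test, and their differences had both signs. IRF9, the DNA-binding subunit of the complex that acts at the ISRE, had 6.61, 6.83, 6.83, 6.98 and 7.02 in SOD1(G93A) arrays, against 6.49, 6.38, 6.68, 6.62 and 6.70 in wild-type arrays. Of the SOD1(G93A) arrays 4 lay above all wild-type arrays, and sample 3 lay among them. The difference was 0.28 (SE 0.09; limma adjusted p = 0.108; unadjusted p = 0.0113), and the call was gained only without SOD1(G93A) sample 3, among the 10 omissions (0.34, adjusted p = 0.0408).

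IRF1, an early responder to gamma interferon, had 5.81, 5.53, 5.91, 5.92 and 5.78 in SOD1(G93A) arrays, against 5.87, 6.06, 6.02, 5.89 and 6.19 in wild-type arrays. The groups overlapped, SOD1(G93A) sample 9 was lowest, and wild-type sample 17 was highest. The difference of −0.22 (SE 0.09) had an adjusted p of 0.205 by limma and an unadjusted p of 0.0315. IRF2, an antagonist of IRF1, differed by −0.09, IRF3, which induces beta interferon downstream of the sensors, by 0.12, and IRF7, which amplifies alpha interferon, by −0.02, and none of them had an unadjusted p under 0.05.

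**Figure D2:**
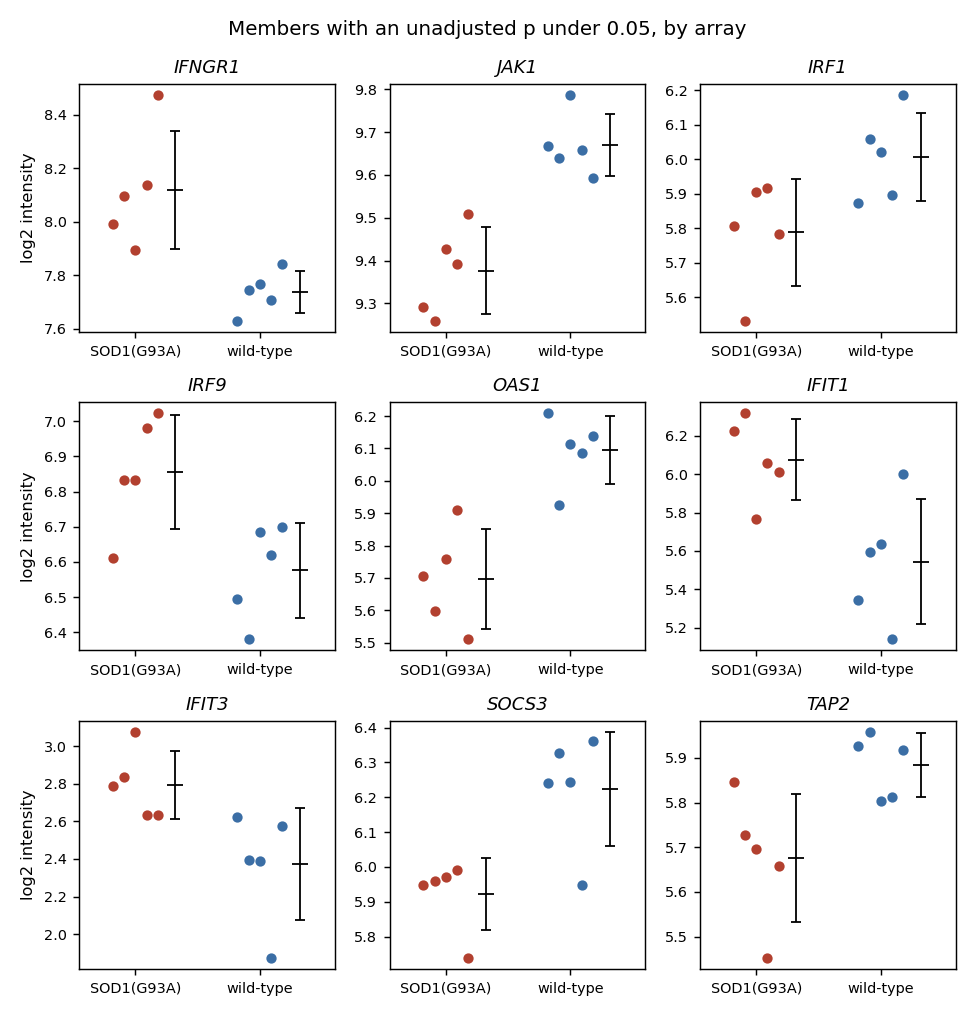
Log2 intensity of the 9 members with an unadjusted p under 0.05, 1 point per array (SOD1(G93A) left in red, samples 3, 9, 12, 15 and 18 from left to right; wild-type SOD1 right in blue, samples 2, 8, 11, 14 and 17), with the mean and SD beside each group (n = 5). The points of the groups do not overlap for IFNGR1, JAK1, OAS1 and IFIT3 and overlap for IRF1, IRF9, IFIT1, SOCS3 and TAP2; each panel has its own axis.

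Among 18 interferon targets, OAS1 was called lower and none was called higher. The share called was 5.56%, beside 9.6% of all named genes. IFIT1, with the largest difference (0.53), and IFIT3 (0.42) were higher and not called. By difference alone 7 were higher and 11 lower, with a median of −0.03. Their mean level per array ran from 4.21 to 4.26 in SOD1(G93A) arrays and from 4.17 to 4.32 in wild-type arrays, so the SOD1(G93A) arrays lay inside the wild-type range. Of the 18, 10 had means under the lower quartile of all probe sets, namely OAS2, OAS3, IFIT2, IFIT3, IFI35, IFI44, IFI44L, MX1, MX2 and RSAD2.

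OAS1 makes the 2-5A messenger that activates an RNA-degrading nuclease. It had 5.71, 5.60, 5.76, 5.91 and 5.51 in SOD1(G93A) arrays, against 6.21, 5.92, 6.11, 6.09 and 6.14 in wild-type arrays. The groups did not overlap, though SOD1(G93A) sample 15 and wild-type sample 8 nearly met. The difference was −0.40 (SE 0.08, interval −0.58 to −0.21; limma adjusted p = 0.0138; exact permutation p = 0.00794), or 76.0% of the wild-type level. The call held in all 10 omissions of an array (adjusted p 0.00651 to 0.0393) and was lost without samples 17 and 18 together (−0.34, adjusted p = 0.0657).

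OAS3 and then OAS2 follow OAS1 in the gene order on chromosome 12, and neither was called. OAS3 had 3.81 ± 0.05 in SOD1(G93A) and 3.76 ± 0.02 in wild-type arrays, a difference of 0.05 (interval −0.05 to 0.15). OAS2 had 2.65 ± 0.11 against 2.74 ± 0.09, a difference of −0.10 (interval −0.25 to 0.06). The related gene OASL, which has no 2-5A activity, differed by 0.09 (interval −0.07 to 0.26). Whether OAS1 differed from OAS2 and OAS3 in its change was not tested.

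IFIT1, which binds viral RNA that lacks a host-type cap, had 6.22, 6.32, 5.77, 6.06 and 6.01 in SOD1(G93A) arrays, against 5.35, 5.60, 5.64, 5.14 and 6.001 in wild-type arrays. SOD1(G93A) sample 12 lay below wild-type sample 17, and the other SOD1(G93A) arrays lay above all wild-type arrays. The difference was 0.53 (SE 0.16, interval 0.19 to 0.88), with an adjusted p of 0.0719 and an unadjusted p of 0.00615 by limma. It passed the threshold without wild-type sample 17 (0.65, adjusted p = 0.0177), without SOD1(G93A) sample 12 (0.61, adjusted p = 0.0481), without samples 17 and 18 together (0.66, adjusted p = 0.0349) and with array weights (0.58, adjusted p = 0.0394). The highest adjusted p over all refits was 0.157.

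IFIT3, a binding partner of IFIT1 that stabilises it, had 2.79, 2.83, 3.08, 2.63 and 2.63 in SOD1(G93A) arrays, against 2.62, 2.39, 2.39, 1.88 and 2.58 in wild-type arrays. The groups did not overlap, by a margin of 0.01 between SOD1(G93A) sample 18 and wild-type sample 2, and wild-type sample 14 was lowest. The difference of 0.42 (SE 0.14) had an adjusted p of 0.117 and an unadjusted p of 0.0129 by limma, and did not pass in any refit (lowest adjusted p 0.0951). Both group means lay below the lower quartile.

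The other IFIT genes measured, IFIT2 and IFIT5, lie beside these on chromosome 10. IFIT2, an antiviral RNA-binding protein, differed by −0.08 (interval −0.37 to 0.20), and IFIT5, which binds uncapped RNA ends, by −0.06 (interval −0.29 to 0.17). IFIT1, IFIT3 and IFIT5 each carry a pair of ISRE matches in the stretches above. Related IFIT transcripts are alike in sequence, and probes shared among them were not examined.

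IFI6, an antiviral protein of endoplasmic reticulum membranes, had 8.36, 7.94, 8.36, 8.23 and 8.42 in SOD1(G93A) arrays, against 8.40, 8.38, 8.499, 8.39 and 8.67 in wild-type arrays. Of the SOD1(G93A) arrays 4 lay below all wild-type arrays and sample 18 among them. The difference of −0.21 did not pass (interval −0.42 to 0.01; limma adjusted p = 0.294). ISG15, a ubiquitin-like modifier, was at 6.03 ± 0.16 in SOD1(G93A) and 6.001 ± 0.06 in wild-type arrays (SD, n = 5 each), a difference of 0.03 (interval −0.14 to 0.20). The exonuclease ISG20 differed by 0.03, and IFI27, which acts at mitochondria and the nuclear envelope, by −0.10.

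The remaining targets were dim. MX1 and MX2, dynamin-like GTPases that trap viral particles, differed by −0.04 and −0.0044, and the radical-SAM antiviral enzyme RSAD2 by −0.16 (interval −0.34 to 0.03; limma adjusted p = 0.354). IFI44 and its neighbour IFI44L differed by −0.03 and −0.10, and IFI35 by 0.07. None had an unadjusted p under 0.05.

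**Figure D3:**
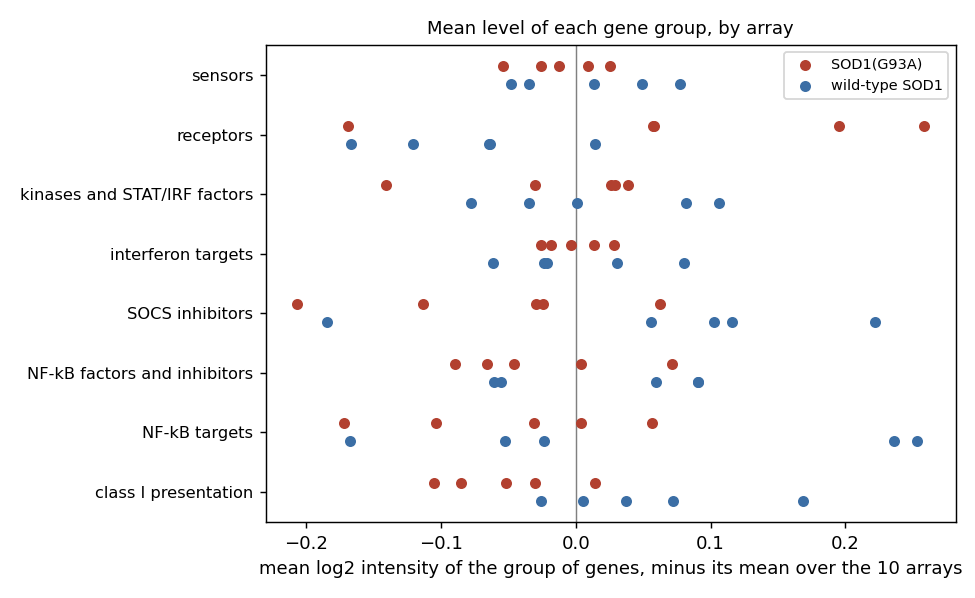
Mean log2 intensity of each group of members by array, minus that group's mean over the 10 arrays (SOD1(G93A) red, wild-type SOD1 blue, 5 arrays each). The groups of arrays overlap for all 8 gene groups, and the class I genes lie lower in SOD1(G93A) arrays (6.34 to 6.46) than in most wild-type arrays (6.42 to 6.61).

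SOCS proteins end cytokine signals by blocking JAK kinases and receptors. SOCS3 had 5.95, 5.96, 5.97, 5.99 and 5.74 in SOD1(G93A) arrays, against 6.24, 6.33, 6.24, 5.95 and 6.36 in wild-type arrays. Wild-type sample 14 lay among the SOD1(G93A) arrays, and the other wild-type arrays stood above them. The difference was −0.30 (SE 0.09, interval −0.49 to −0.11), with an adjusted p of 0.0618 and an unadjusted p of 0.00497 by limma. It passed without wild-type sample 14 (−0.37, adjusted p = 0.00974), and in no other refit.

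SOCS2, a feedback inhibitor of growth hormone signalling, was at 7.73 ± 0.15 in SOD1(G93A) and 7.64 ± 0.12 in wild-type arrays (SD, n = 5 each), a difference of 0.08 (interval −0.11 to 0.27). SOCS1, the main brake on gamma interferon, differed by −0.16 (interval −0.48 to 0.17), with values from 4.53 to 5.06 in SOD1(G93A) arrays and from 4.76 to 5.43 in wild-type arrays.

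**Figure D4:**
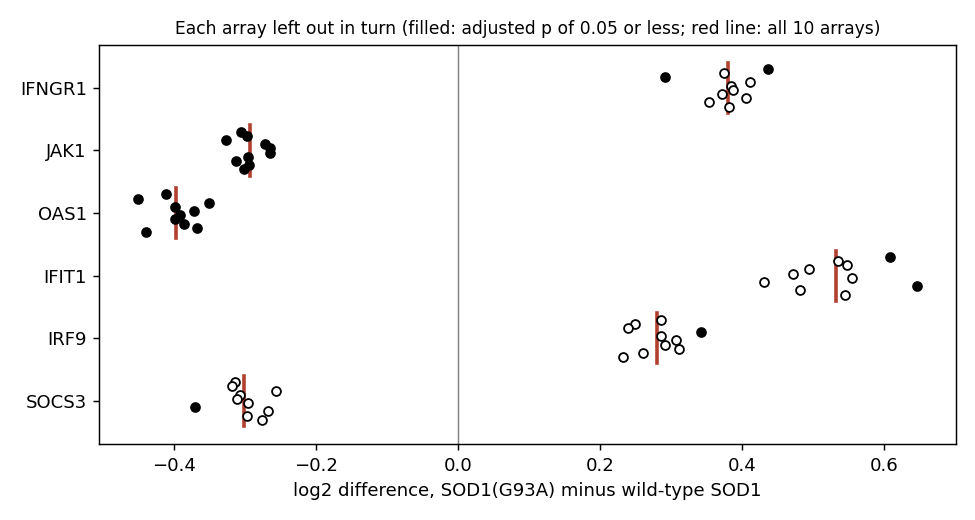
Log2 differences, SOD1(G93A) minus wild-type SOD1, of 6 members after each of the 10 arrays was left out in turn (points; filled where the adjusted p by limma was 0.05 or less) and with all arrays (red line). JAK1 and OAS1 stayed called in all 10 omissions, IFNGR1 in 2, and IFIT1, IRF9 and SOCS3 became called in 2, 1 and 1.

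None of the 6 NF-kB factors and inhibitors was called by limma, and 0 had an unadjusted p under 0.05. RELA, the main activating subunit, was at 9.26 ± 0.11 in SOD1(G93A) and 9.17 ± 0.15 in wild-type arrays (SD, n = 5 each), a difference of 0.09 (interval −0.09 to 0.28; limma adjusted p = 0.642). NFKB1, its DNA-binding partner, differed by −0.09. NFKB2 and RELB, the subunits of the noncanonical route, differed by 0.02 and −0.05.

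Of the inhibitors, NFKBIA holds NF-kB in the cytoplasm and TNFAIP3 edits ubiquitin on upstream signalling proteins. Both are also targets of NF-kB, and both promoters carried its consensus motif in the stretches above. NFKBIA had 8.58, 8.73, 8.26, 8.77 and 8.31 in SOD1(G93A) arrays, against 8.65, 8.90, 8.65, 8.53 and 8.52 in wild-type arrays, a difference of −0.12 (interval −0.38 to 0.14). Its groups overlapped, with SOD1(G93A) samples 12 and 18 lowest. TNFAIP3 was dim, at 2.79 ± 0.09 in SOD1(G93A) and 2.94 ± 0.17 in wild-type arrays (SD, n = 5 each), a difference of −0.15 (interval −0.33 to 0.04; limma adjusted p = 0.402).

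The 3 inflammatory targets of NF-kB were not called either, and 0 had an unadjusted p under 0.05. The cytokine IL6 was at 2.75 ± 0.16 in SOD1(G93A) and 2.90 ± 0.26 in wild-type arrays (SD, n = 5 each), a difference of −0.15 (interval −0.43 to 0.13; limma adjusted p = 0.605). Its other probe set gave −0.14. The chemokine CXCL8 differed by −0.11 (interval −0.40 to 0.18), and both it and IL6 had means below the lower quartile. ICAM1, an adhesion receptor for leukocytes, was at 4.28 ± 0.14 against 4.31 ± 0.15, a difference of −0.03 (interval −0.23 to 0.17).

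None of the 5 class I presentation genes was called. Of their differences 4 were negative, with a median of −0.11. TAP2, a chain of the peptide pump into the endoplasmic reticulum, had 5.84, 5.73, 5.70, 5.45 and 5.66 in SOD1(G93A) arrays, against 5.93, 5.96, 5.80, 5.81 and 5.92 in wild-type arrays. Of the SOD1(G93A) arrays 4 lay below all wild-type arrays, and sample 3 lay among them. The difference was −0.21 (SE 0.07, interval −0.37 to −0.04), with an adjusted p of 0.144 and an unadjusted p of 0.0179 by limma, and it did not pass in any refit (lowest adjusted p 0.0812).

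TAP1, the other chain of the pump, showed the same order, with 4 SOD1(G93A) arrays below all wild-type arrays. It had 4.19, 3.97, 3.99, 3.96 and 3.99 in SOD1(G93A) arrays, against 4.21, 4.04, 4.15, 4.08 and 4.14 in wild-type arrays, a difference of −0.11 (interval −0.24 to 0.03; limma adjusted p = 0.409). SOD1(G93A) sample 3 stood apart from its group.

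B2M, the light chain of class I molecules, was at 9.00 ± 0.25 in SOD1(G93A) and 9.12 ± 0.18 in wild-type arrays (SD, n = 5 each), a difference of −0.11 (interval −0.39 to 0.16; limma adjusted p = 0.724). TAPBP, which bridges the pump and empty class I molecules, differed by 0.01 (interval −0.17 to 0.18). NLRC5, the transactivator of class I genes, was at 4.98 ± 0.04 in SOD1(G93A) and 5.07 ± 0.06 in wild-type arrays, a difference of −0.09 (interval −0.20 to 0.01).

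The calls were set beside the promoter matches. None of the 17 members with an ISRE match was called, and 3 of them (IFIT1, IFIT3 and TAP2) had an unadjusted p under 0.05, 2 higher and 1 lower. Their differences had a median of −0.06, against −0.04 for the 23 promoters without a match. All 3 called members lacked the GAAANNGAAA pattern in these windows, and OAS1 held a GAS match. Other spacings of the ISRE core were not searched, so an ISRE of another form could have been missed. The 13 members with the NF-kB consensus had a median of −0.11, against −0.03 for the 27 without it, and ran from −0.22 to 0.09 with no call. Over all named genes 9.6% were called and 21.7% had an unadjusted p under 0.05 by limma, so sets this small would hold few calls. These comparisons describe sets that share arrays and were not tested.

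Single arrays carried part of the spread. Wild-type sample 17 was the highest of the 10 arrays for 17 of the 51 members (33.3%), and over all named genes it was highest for 15.2%. SOD1(G93A) sample 9 was the lowest for 13 members (25.5%), and over all named genes for 16.3%. Sample 17 was also the highest array in the means of the interferon targets, the NF-kB targets and the class I genes. Without sample 17 the members called were JAK1, OAS1 and IFIT1, and without sample 9 they were JAK1 and OAS1.

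A further 130 genes of the same pathways were listed by function, with earlier results on these data known, and 103 of them were measured. Of these, 7 rose and 5 fell, or 11.7%, beside the 9.6% of all named genes. The median difference was −0.02.

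The largest change was in TNFRSF1A, the TNF receptor that feeds NF-kB. It had 7.03, 6.93, 6.78, 6.83 and 6.64 in SOD1(G93A) arrays, against 5.24, 5.38, 5.50, 5.17 and 5.38 in wild-type arrays. The groups were far apart. The difference was 1.51 (SE 0.09, interval 1.32 to 1.70; limma adjusted p = 1.309e-06), 284.8% of the wild-type level, and it was called in all 15 refits.

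TRADD, the adaptor that binds this receptor, had 7.31 to 7.63 in SOD1(G93A) arrays and 7.15 to 7.24 in wild-type arrays. It rose by 0.26 (SE 0.07; limma adjusted p = 0.0474), a narrow call lost without any 1 of 8 arrays (samples 2, 8, 11, 12, 14, 15, 17 and 18; adjusted p up to 0.108), and likewise after median centring, without samples 17 and 18 together, with array weights and in the unmoderated test (adjusted p up to 0.15). The chemokine gene CCL2, an NF-kB target, had 6.297, 6.71, 6.05, 6.70 and 6.47 in SOD1(G93A) arrays, against 7.37, 7.33, 7.30, 6.53 and 7.85 in wild-type arrays. Wild-type sample 14 lay among the SOD1(G93A) arrays. CCL2 fell by 0.83 (SE 0.22; limma adjusted p = 0.0429), and the call was kept in 1 of the 10 omissions, that of wild-type sample 14 (−1.02, adjusted p = 0.00442). Over the other omissions its adjusted p reached 0.0938, and it was also lost with array weights, in the unmoderated test and without samples 17 and 18. Over the 26 genes of this list 2 rose and 1 fell, or 11.5%, beside 9.6% of all named genes, with a median of −0.02.

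Of 30 other interferon-stimulated genes 3 rose and 2 fell, with a median of −0.04. The share called was 16.7%, beside 9.6% of all named genes. At an unadjusted p under 0.05 by limma it was 36.7%, beside 21.7% of all named genes. Whether these shares differ was not tested. SAMD9 and SAMD9L, neighbouring antiviral genes of similar sequence on chromosome 7, rose by 0.67 (SE 0.07) and 0.70 (SE 0.06). SAMD9 had 3.39 to 3.65 in SOD1(G93A) arrays and 2.77 to 3.08 in wild-type arrays. SAMD9L had 3.76, 3.80, 3.80, 3.71 and 3.69 in SOD1(G93A) arrays, against 3.16, 3.11, 2.98, 2.91 and 3.07 in wild-type arrays, with no overlap. Both genes were below the lower quartile in both lines, where differences are compressed, and both were called in all 15 refits. SP110, a nuclear body protein, rose by 0.62 (SE 0.08), with 5.31 to 5.55 in SOD1(G93A) arrays and 4.62 to 4.93 in wild-type arrays.

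TRIM25 and HERC5 were the genes of this list that fell. TRIM25, the ubiquitin ligase that activates RIGI, fell by 0.38 (SE 0.08; limma adjusted p = 0.0169), with 7.79 to 8.06 in SOD1(G93A) arrays and 8.13 to 8.46 in wild-type arrays. Its call was lost without samples 17 and 18 together (adjusted p = 0.0934). HERC5, the main ligase for ISG15, fell by 0.42 (SE 0.09; limma adjusted p = 0.0167), with 5.34 to 5.72 in SOD1(G93A) arrays and 5.67 to 6.003 in wild-type arrays.

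The other lists held 4 calls. The share called was 5.56% for sensing and adaptor genes, 11.8% for further JAK-STAT genes and 8.33% for further class I genes. Over all named genes it was 9.6%. Of 18 sensing and adaptor genes, TLR4, the receptor for bacterial lipopolysaccharide, rose by 0.81 (SE 0.11; limma adjusted p = 0.000972), with 4.33 to 4.86 in SOD1(G93A) arrays and 3.65 to 3.96 in wild-type arrays. Of 17 further JAK-STAT and receptor genes, LIFR, the receptor of leukaemia inhibitory factor, rose by 0.57 (SE 0.09; limma adjusted p = 0.00281), with 6.17 to 6.47 in SOD1(G93A) arrays and 5.61 to 5.97 in wild-type arrays. SOCS5, a relative of the SOCS inhibitors above, had 8.24 to 8.49 in SOD1(G93A) arrays and 8.53 to 8.79 in wild-type arrays. It fell by 0.28 (SE 0.07; limma adjusted p = 0.0422), a call kept in 1 of 10 omissions, that of SOD1(G93A) sample 18 (adjusted p up to 0.104 over the others). The SOCS5 call was also lost in the unmoderated test and without samples 17 and 18 together.

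Of 12 further class I genes, ERAP1, the peptidase that trims peptides for class I molecules, fell by 0.54 (SE 0.06; limma adjusted p = 0.000156). It had 5.65, 5.60, 5.50, 5.52 and 5.60 in SOD1(G93A) arrays, against 6.19, 5.999, 6.19, 6.07 and 6.12 in wild-type arrays, with no overlap. It was called in all 15 refits.

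Markers of other cell types were set beside these genes. The mean of 6 immune markers ran from 3.87 to 3.94 in SOD1(G93A) arrays and from 3.80 to 3.97 in wild-type arrays. The mean of 5 endothelial markers ran from 3.20 to 3.26 in SOD1(G93A) arrays and from 3.18 to 3.34 in wild-type arrays. The mean of 4 fibroblast markers ran from 6.71 to 6.90 in SOD1(G93A) arrays and from 6.29 to 6.52 in wild-type arrays, with DCN, a matrix proteoglycan, called higher by 1.34 (SE 0.10). The other fibroblast markers were not called and had both signs, with PDGFRB at −0.15, COL1A1 at 0.14 and LUM at 0.29. The part of the fibroblast markers in the changes of TNFRSF1A, TLR4, LIFR and IFNGR1 was not tested.

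**Figure D5:**
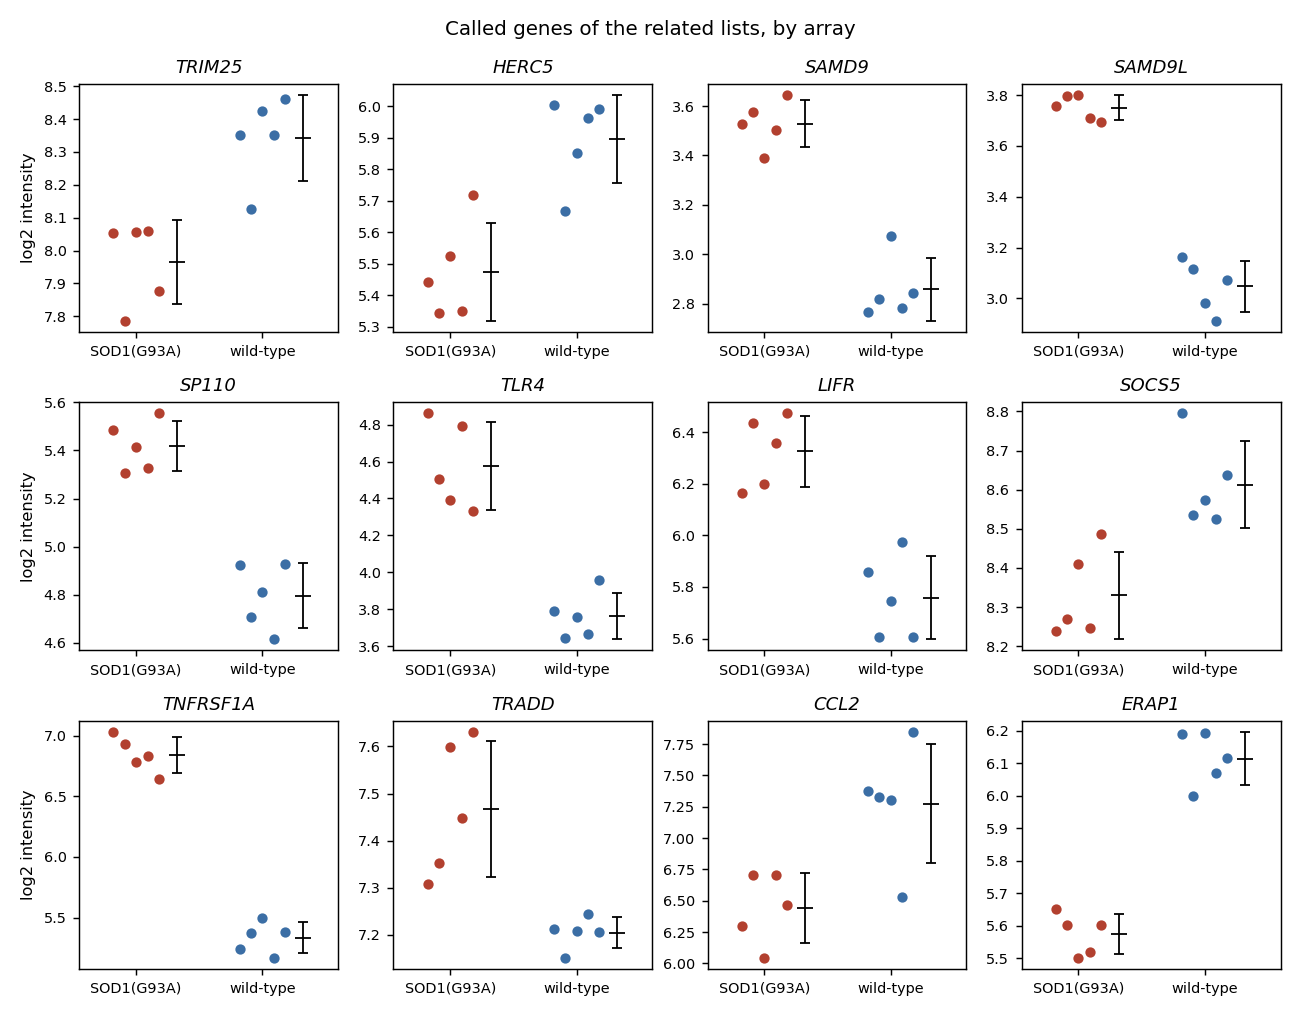
Log2 intensity of the 12 called genes of the related lists, 1 point per array (SOD1(G93A) left in red, wild-type SOD1 right in blue, arrays in the order of their sample numbers), with mean and SD (n = 5). TNFRSF1A shows the widest gap (6.64 to 7.03 against 5.17 to 5.50), and the groups overlap for HERC5 and CCL2; each panel has its own axis.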

How the data were processed

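Each of the 10 arrays has 1 deposited value for each of 22011 probe sets, a log2 intensity. Per the submitters' processing notes these come from RMA; the labels name oneChannelGUI 1.6.5 as the authors' software. RMA forces the arrays onto one distribution, which hides any change common to all genes, and it compresses dim probes. Genome build, filters and detection calls: not given in the sources used here. Precision is limited by the number of arrays.

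Gene names came from the platform annotation, in which 14432 probe sets carried 1 symbol, 2408 several and 5171 none. Groups came from the sample titles. The test was limma (version 3.58.1, run in R 4.3.3) with lmFit and eBayes, 2-sided and without a filter, adjusted over all probe sets. It was also run on simulated data drawn from the wild-type means and the fitted spreads. Alternatives were an unmoderated test, a variance trend with a robust prior, array weights, median centring, the brighter probe sets alone, omission of each array and of samples 17 and 18, the mean of a gene's probe sets, and the labels' 2-fold threshold. The members and lists were chosen with earlier results of these data known. Statistics are given for members with an unadjusted p under 0.05, the largest difference or the highest level in their role, and for called genes of the related lists. Promoter sequences are RefSeq's, on GRCh38.p14.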

Additional observations from a re-analysis of the deposited data

Results flagged for a closer look

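Within each group of 5 arrays, an array was singled out when its gap to the nearest array exceeded 0.71 of the group's range (Dixon's criterion). Of 102 groups examined (51 members in each line), 7 were singled out, or 6.86%, and chance gives about 1 in 20. In the SOD1(G93A) arrays these were TAP1 in sample 3 (4.19, nearest 3.99), SOCS3 in sample 18 (5.74, nearest 5.95), ISG15 in sample 15 (5.76, nearest 6.05), and SOCS1 (4.53, nearest 4.93) and ICAM1 (4.03, nearest 4.30) in sample 9. In the wild-type arrays they were TAPBP in sample 17 (8.52, nearest 8.24) and IFIT2 in sample 2 (3.12, nearest 2.69). None of these genes was called with all arrays.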

How the results depend on the processing

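The count of called members was small, so 1 gene moved it. The higher count was 1 and became 2 with array weights, 0 in the unmoderated test and 2 without samples 17 and 18; over the omissions of 1 array it ran from 0 to 2. The lower count was 2 and became 1 among the brighter probe sets, where 19 members were tested and OAS1 was not among them, and 1 without samples 17 and 18; over the omissions it ran from 2 to 3. Adding the labels' 2-fold threshold left 0 members higher, 0 lower and 192 probe sets on the whole array, against 1643. Over the omissions of 1 array the count on the whole array ran from 1274 to 1562, and over the other refits from 1267 to 1691. No called member or member that became called changed direction in any refit. No paired analysis was made, because the groups share no sample numbers and no label ties neighbouring numbers to each other.

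Among the related lists, the NF-kB list had 1 call instead of 3 with array weights, in the unmoderated test and without samples 17 and 18. The further JAK-STAT list had 1 instead of 2 without samples 17 and 18, and the sensing and class I lists 0 among the brighter probe sets. Most omissions of 1 array also lost the calls of TRADD, CCL2 and SOCS5, as given above. The causes of these changes were not tested. The brighter probe sets left fewer genes to test, TLR4 and ERAP1 not among them, and the omissions left fewer arrays. No detection calls were at hand for the 16 members under the lower quartile.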
